A study of Mus musculus and Homo sapiens with 41 samples.

Results

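The genes described here encode the proteins of the cytosolic ribosome. They were taken by symbol, as protein-coding genes named Rpl or Rps (RPL or RPS in human) followed by a digit, a or p, without the Rps6k kinases and names ending in -ps. The rule gave 86 of 21911 mouse genes and 92 of 20007 human genes, and it also takes in relatives that are not ribosomal subunits, such as Rps19bp1 and human readthrough genes. For each gene, the length covered by peaks of H2AK119ub, histone H2A carrying a single ubiquitin near its C-terminal end, was measured within 5 kb to each side of the transcription start site (TSS) in every library. The expression of these genes was not measured in these files.

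H2AK119ub is placed by Polycomb repressive complex 1 and removed by the deubiquitinase BAP1. TET2 oxidizes 5-methylcytosine in DNA and RNA, NSUN2 places 5-methylcytosine on RNA and MBD6 is a methyl-CpG-binding-domain protein that associates with BAP1 complexes. In embryonic stem cells the mark is best known at silent developmental genes. Ribosomal protein genes are the opposite kind of gene. They are transcribed in every growing cell, their promoters are rich in CpG, and their transcripts begin with a run of pyrimidines, the 5′ terminal oligopyrimidine tract, through which translation is controlled by growth signals.

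The study profiled H2AK119ub by CUT&Tag, in which an antibody-tethered transposase cuts and tags chromatin, in 39 libraries of 13 groups with 3 libraries each, and BAP1 in 2 libraries of WT mouse embryonic stem (mES) cells. The mES cell groups were untransfected Tet2-KO and WT cells, Tet2-KO cells with siRNA against Mbd6 (siMbd6) or Nsun2 (siNsun2) or with control siRNA (siNC), and WT cells with siNC, all grown with LIF and with inhibitors of GSK3 and MEK. Haematopoietic stem and progenitor cells (HSPCs) were lineage-negative, c-Kit-selected bone marrow cells of mice aged 6 to 8 weeks, cultured for 7 days with added cytokines. They were Tet2-KO cells with shRNA against Mbd6 (shMbd6) or control shRNA (shNC), and WT cells with shNC. The K-562 groups, from a human erythroleukaemia line, were TET2-KO cells with siMBD6, siNSUN2 or siNC and WT cells with siNC. The Tet2-KO mES cells of the siRNA experiment had no parallel WT knockdown, and the labels do not say whether the knockout lines are single clones or whether replicates were separate cultures or animals, so the p-values measure only the spread between these libraries.

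The libraries differed in how many peaks they held, which was the closest available measure of depth and yield. Untransfected and WT siNC mES cells had 24360 to 37392 peaks, the 9 siRNA-treated Tet2-KO libraries 4251 to 12139, HSPCs 1398 to 8286 and K-562 cells 1919 to 4575. The HSPC groups did not overlap, with 7650 to 8286 peaks in Tet2-KO shMbd6, 1398 to 1451 in Tet2-KO shNC and 3979 to 4629 in WT shNC libraries. The part of these gaps in the results was not tested. Peaks on the added Drosophila chromatin numbered 85 to 95 in Tet2-KO shMbd6 HSPCs, 205 to 231 in Tet2-KO shNC HSPCs and 48 to 56 in WT shNC HSPCs, and their part in the results was not tested. As a check on the antibody, 26 of 29 Polycomb target transcription factor genes carried a peak in at least 2 WT siNC mES cell libraries, beside 55.6% of all windows. The same check was weak or failed in the other cells, with 4 of 29 (13.8%, beside 11.9% of all windows) in WT HSPCs and, for the human genes, 0 of 29 (beside 4.89%) in WT siNC K-562 cells. Cell identity markers could not be checked, because peak lists give no expression.

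The promoters shown first are those of genes on which the results turn. Rplp0, Rps21 and Rpl13a had a peak in all 6 WT mES cell libraries, whereas Rpl38, Rpl4 and Rpl23 had none in any mouse library. Each line runs 5′ to 3′ from 50 bases before the RefSeq start and includes the first 25 bases of the transcript (RefSeq, GRCm38.p6). Capitals mark the longest unbroken run of C and T within 20 bases of that start.
Rplp0, chr5:115559417-115559491, plus strand: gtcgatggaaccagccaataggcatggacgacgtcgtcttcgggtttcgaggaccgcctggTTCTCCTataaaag
Rps21, chr2:180257329-180257403, plus strand: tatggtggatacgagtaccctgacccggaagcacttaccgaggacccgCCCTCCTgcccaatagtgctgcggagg
Rpl13a, chr7:45128721-45128795, minus strand: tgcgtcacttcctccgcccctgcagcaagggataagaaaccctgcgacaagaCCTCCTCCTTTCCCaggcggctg
Rpl38, chr11:114668530-114668604, plus strand: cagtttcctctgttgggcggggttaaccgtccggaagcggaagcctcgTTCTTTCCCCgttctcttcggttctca
Rpl4, chr9:64173337-64173411, plus strand: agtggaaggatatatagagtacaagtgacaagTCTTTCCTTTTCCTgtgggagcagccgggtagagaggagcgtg
Rpl23, chr11:97782415-97782489, minus strand: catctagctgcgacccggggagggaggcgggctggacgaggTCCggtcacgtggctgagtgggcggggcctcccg

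The longest runs near the start did not all lie over it, and their lengths overlapped between covered and never covered genes. The run was 14 bases long in Rpl13a and also in the never covered Rpl4, 10 bases in Rpl38, 7 bases in Rplp0 and Rps21, and 3 bases in Rpl23. The H2AK119ub peaks of Rplp0 and Rps21 lay over the annotated start in all 6 WT mES cell libraries, and that of Rpl13a covered its GENCODE start, 16 bases from the RefSeq start, in 3 of 6.

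Of the 86 mouse members, 66 had a promoter entry of 300 bases, which is too few for a statement on the family, so a check of GC content and CpG number over all members is void. Those without an entry included Rpl17, Rpl21, Rpl23a, Rpl29, Rpl3, Rpl30, Rpl32, Rpl36, Rpl7, Rpl8, Rplp1, Rps14, Rps20, Rps27a and Rps29. Among the 66 with an entry, TCT occurred within 10 bases of the start in 25 (37.9%), against 25% of 16522 protein-coding genes with an entry. A run of at least 8 pyrimidines occurred there in 19 (28.8%), against 7.82% of all. The ETS factor motif CCGGAAG, on either strand of the 300 bases, occurred in 25 (37.9%), against 12.3% of all. The E-box CACGTG occurred in 5 (7.58%), against 8.09%, and the TATA box TATAAA in 6 (9.09%), against 12.9%. Such matches describe letters and not bound sites.

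In WT mES cells, H2AK119ub peaks were found at most ribosomal protein genes, at about the frequency seen over all protein-coding genes. A peak lay within 5 kb of the TSS in at least 2 of 3 libraries for 54 of 86 members in untransfected WT cells (62.8%, against 55.7% of all mouse windows) and for 52 of 86 in WT siNC cells (60.5%, against 55.6%). The 2 sets shared 48 genes, 88.9% of the untransfected set and 92.3% of the siNC set. Untransfected Tet2-KO cells had 43 of 86 (50%, against 55.8% of all windows). Single libraries held 36 to 49 covered members in Tet2-KO cells and 45 to 60 in WT cells, so the groups overlapped.

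**Figure D1:**
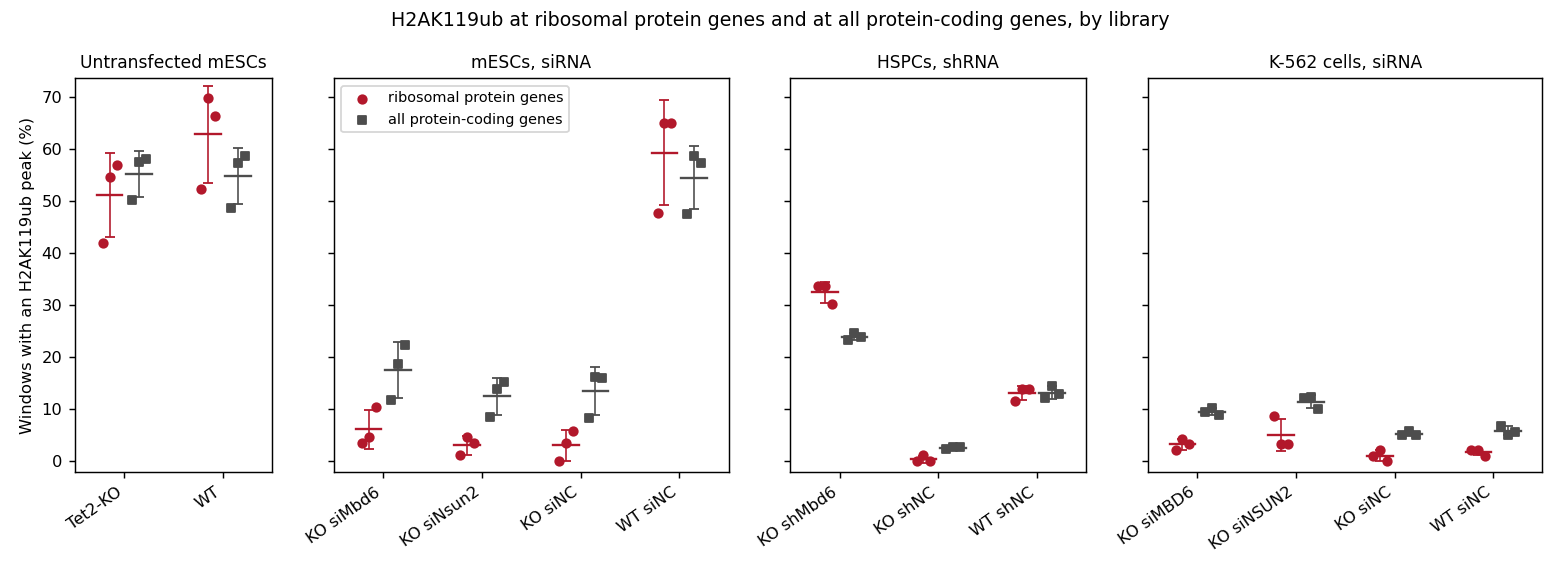
Percentage of windows (5 kb to each side of the TSS) with an H2AK119ub peak in each library, for ribosomal protein genes (red circles) and all protein-coding genes (grey squares). Horizontal lines are group means and error bars the SD of 3 libraries. Ribosomal protein genes averaged 32.6% in Tet2-KO shMbd6 HSPCs and 3.1% in Tet2-KO siNC mES cells, against 24% and 13.5% of all windows.

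Most of the covered length of members lay near the start site, in narrow peaks. In untransfected WT mES cells 71.1% ± 2.09 (SD, n = 3) of the covered bases of member windows lay within 1 kb of the TSS, beside 75.8% over all windows, and in WT siNC cells 70%, beside 75.4%. In untransfected WT cells coverage was highest in the bin centred 50 bases upstream, at 35.5% of members. Over all windows the highest bin reached 28.2%. Of the covered member bases, 59.7% lay upstream of the TSS in untransfected WT cells and 62.4% in WT siNC cells, against 44.9% and 44.7% over all windows. Peaks in member windows had a median width of 311 to 370 bases in the 6 WT mES cell libraries, compared with 379 to 442 bases for all peaks in gene windows, and a median fold enrichment of 4.3 to 4.76. The start base itself was covered in every WT mES cell library for 10 members and in none for 34.

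**Figure D2:**
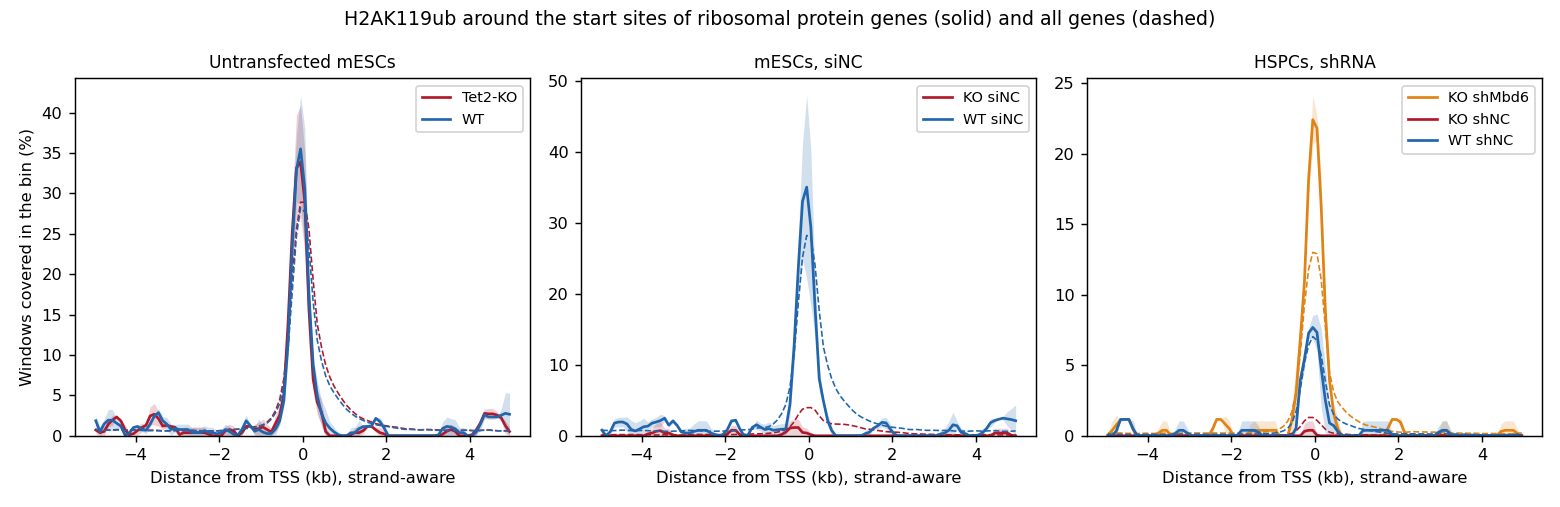
Share of windows covered in 100-base bins by distance from the TSS in the direction of transcription, as means over 3 libraries (solid lines, ribosomal protein genes, with shaded SD; dashed lines, all genes); the vertical scales differ between panels. Member coverage peaks just upstream of the TSS, at 35% of members in WT siNC mES cells, and is nearly absent in Tet2-KO siNC cells.

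Members differed widely among themselves. Rps18 and Rps19 had the most H2AK119ub in untransfected WT mES cells together with the retrogene Rps27rt, at means of 0.855 ± 0.181, 0.799 ± 0.264 and 0.837 ± 0.314 kb (SD, n = 3), followed by Rpl18 (0.716 ± 0.0951 kb) and Rpl36 (0.639 ± 0.184 kb). The order of these 5 is not resolved, since neighbouring means differ by less than their SDs. Among them only Rps19 had a window without another protein-coding TSS. The GENCODE starts of Rps18 and Rps27rt were covered in no WT mES cell library. At the other end, 13 of 86 mouse members had no peak in any of the 27 mouse H2AK119ub libraries, namely Rpl17, Rpl23, Rpl24, Rpl35a, Rpl38, Rpl39l, Rpl4, Rpl6, Rpl7a, Rpl9, Rps12, Rps15a and Rps27. Large-subunit genes were covered in 31 of 52 cases and small-subunit genes in 23 of 34 in untransfected WT cells. A peak in a window need not belong to the member, because 34 mouse members had another protein-coding TSS in the window. Of these, 21 were covered in untransfected WT cells, as were 33 of the 52 members with no such neighbour.

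**Figure D3:**
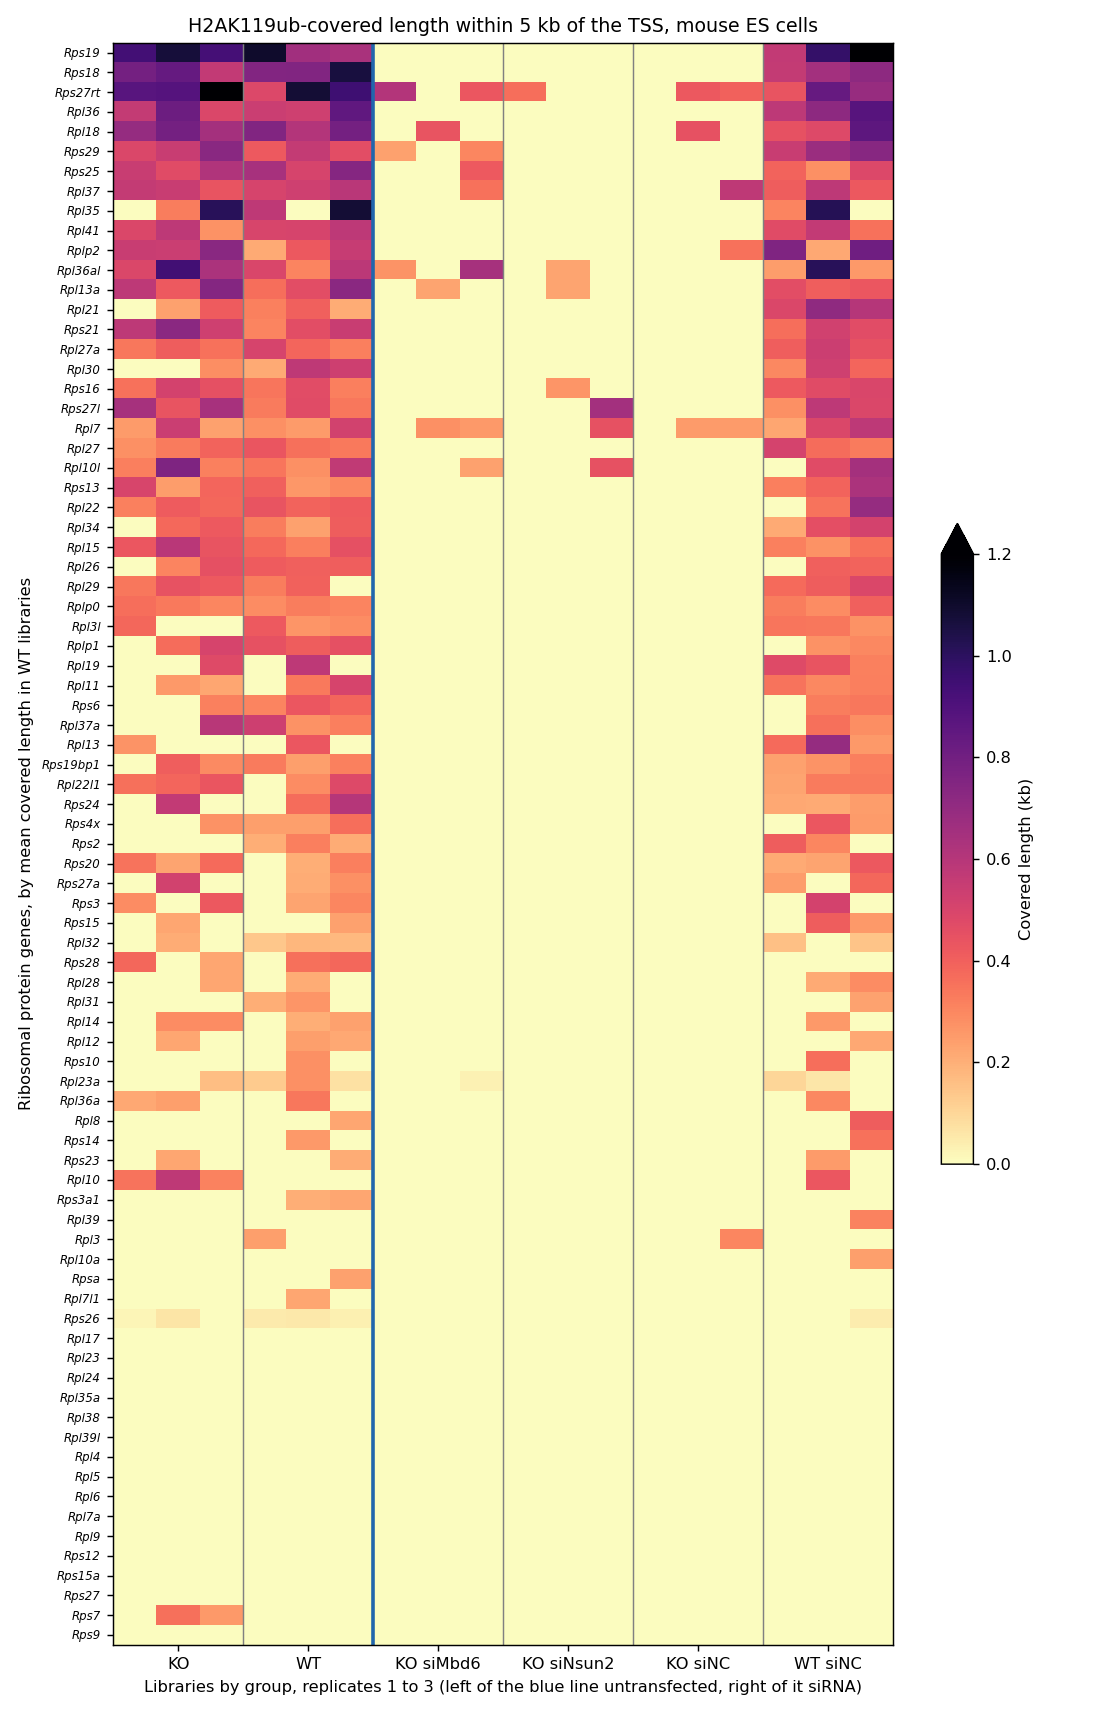
H2AK119ub-covered length (kb, colour) within 5 kb of the TSS of 81 of the 86 mouse ribosomal protein genes (rows, ordered by their mean in WT libraries) in the 18 mES cell libraries (columns, 3 per group). Untransfected Tet2-KO libraries held 36 to 49 covered members and WT libraries 45 to 60, and the 9 siRNA-treated Tet2-KO libraries are close to empty, with 0 to 9 members covered in each.

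In untransfected mES cells no ribosomal protein gene passed the test for a change of H2AK119ub with loss of Tet2. Of the 86 members, 54 were covered in at least 3 of the 6 libraries and were tested with limma, with p-values adjusted over all 12820 windows tested. None was called, and 0.0234% of all windows were called. An unadjusted p under 0.05 was found for 4 of the 54 members and for 710 of the 12820 windows. The median difference of the tested members was −0.0228 kb, beside 0.03 kb over all windows.

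The gene with the largest difference was Rpl10, whose protein joins the large subunit late in its maturation. It had 0.348, 0.573 and 0.31 kb in the Tet2-KO libraries and was listed at 0 in all 3 WT libraries, a difference of 0.41 ± 0.0879 kb (SE) with an adjusted p of 0.341 by limma. The groups did not overlap, and WT siNC cells had 0, 0.428 and 0 kb. Rps2, named after its values were seen, ran the other way, with 0 kb in all Tet2-KO libraries, against 0.206, 0.323 and 0.21 kb in WT libraries (adjusted p = 0.46 by limma).

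The P-stalk genes, whose products recruit elongation factors to the ribosome, were not called in untransfected cells. Rplp0 had 0.361, 0.334 and 0.304 kb in Tet2-KO libraries, against 0.287, 0.325 and 0.309 kb in WT libraries. Rplp2 had 0.545, 0.542 and 0.731 kb in Tet2-KO libraries, against 0.211, 0.422 and 0.553 kb in WT libraries, with overlapping groups. Rps19, the gene most often mutated in Diamond-Blackfan anaemia, had 0.933, 1.07 and 0.929 kb in Tet2-KO libraries, against 1.1, 0.659 and 0.635 kb in WT libraries.

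In mES cells with control siRNA, by contrast, H2AK119ub was nearly absent from ribosomal protein genes in Tet2-KO cells. Only 2 of 86 members, Rpl7 and Rps27rt, were covered in at least 2 Tet2-KO siNC libraries (2.33%, against 12% of all windows), whereas 52 were in WT siNC libraries. The windows of both also hold the TSS of another gene, Rdh10 beside Rpl7 and Osbpl10 beside Rps27rt. Single Tet2-KO siNC libraries had 0 to 5 covered members, against 41 to 56 in WT siNC libraries, with no overlap. The mean covered length per member was 0.0117 ± 0.011 kb in Tet2-KO siNC cells and 0.25 ± 0.0626 kb in WT siNC cells (SD, n = 3 each), and over all windows it was 0.0614 ± 0.0239 kb and 0.299 ± 0.0608 kb.

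Of the 86 members, 38 passed the filter of at least 3 covered libraries among the 12 of the siRNA experiment, and 32 of them fell in Tet2-KO siNC cells while none rose. This count is no support on its own, since 23 of the 38 passed through the WT siNC libraries alone, and 71.9% of all 10756 windows tested fell. The median difference was −0.428 kb, beside −0.418 kb over all windows. For 30 of the 32, the Tet2-KO siNC value was 0 in every library, which adds no spread to the test, so their p-values may be too small. Among the members named in the next paragraphs, Rps19, Rpl21, Rps18, Rpl36, Rplp0, Rpl11, Rps24, Rpl22l1 and Rpl3l were at 0 in all 9 siRNA-treated Tet2-KO libraries. They could be tested only through the WT siNC libraries in which they are high, so their differences and p-values are descriptions and no support. Leaving out a WT siNC library cannot check the count, because the 23 members then no longer pass the filter. Without replicate 1, 2 or 3 of that group, 11, 8 or 6 members were called of 14 or 15 tested.

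Rps19 had the largest difference. It was listed at 0 in all 3 Tet2-KO siNC libraries, against 0.567, 0.976 and 1.25 kb in WT siNC libraries, a difference of −0.93 ± 0.131 kb (SE; adjusted p = 0.000165 by limma), and its window (chr7:24879371-24889370) holds no other protein-coding TSS. Rps29, another small-subunit gene mutated in Diamond-Blackfan anaemia, was listed at 0 in Tet2-KO siNC cells, against 0.545, 0.679 and 0.735 kb in WT siNC cells (−0.653 ± 0.0741 kb, SE). Rpl21 was at 0, against 0.49, 0.708 and 0.604 kb (−0.601 ± 0.047 kb, SE). Neither gene's groups overlapped, and the adjusted p-values by limma were 3.72e-05 for Rps29 and 3.21e-06 for Rpl21.

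For other members the peak lay away from the start. Rps18 was listed at 0 in Tet2-KO siNC cells, against 0.561, 0.655 and 0.716 kb in WT siNC cells (−0.644 ± 0.0372 kb, SE), but the nearest covered base was 4221 bases (median of 3 libraries) from its TSS, in a window shared with B3galt4 and Vps52. Rpl36 was at 0, against 0.579, 0.716 and 0.877 kb (−0.724 ± 0.0608 kb, SE), with its nearest covered base at a median of 1142 bases, in a window shared with 2410015M20Rik. Of the 32 called members, 25 had a median distance under 1 kb, 20 of them a peak over the TSS itself, and 7 lay farther away. These distances were taken from the GENCODE start, and the counts could differ with RefSeq starts.

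Some calls and misses were close. Rplp2 had 0, 0 and 0.356 kb in Tet2-KO siNC cells, against 0.759, 0.22 and 0.802 kb in WT siNC cells, and was called although the groups overlapped (adjusted p = 0.0157 by limma). Rpl36al, a paralogue of Rpl36a, had the largest difference that was not called, with 0 kb in all Tet2-KO siNC libraries, against 0.246, 1.01 and 0.254 kb (−0.505 ± 0.214 kb, SE; adjusted p = 0.0565 by limma). Its high value came from WT siNC replicate 2 alone.

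By role, both tested P-stalk genes fell. Rplp0 was listed at 0 in Tet2-KO siNC cells, against 0.325, 0.29 and 0.4 kb in WT siNC cells (−0.338 ± 0.0311 kb, SE; adjusted p = 9.16e-06 by limma). Rplp1 did not pass the filter, with 0 kb in all Tet2-KO siNC libraries, against 0, 0.275 and 0.298 kb. Rpl11, which binds 5S ribosomal RNA and the p53 regulator Mdm2 together with Rpl5, was at 0, against 0.35, 0.298 and 0.319 kb (−0.322 ± 0.0247 kb, SE), whereas Rpl5 had no peak in any mES cell library.

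Of 19 genes linked to Diamond-Blackfan anaemia, 7 were tested and all 7 fell, in a comparison in which 71.9% of all tested windows fell. Rps24 was at 0, against 0.22, 0.215 and 0.246 kb, but its nearest covered base was at a median of 3389 bases from the GENCODE start, in a window shared with Polr3a. The RefSeq start of Rps24 lies 3553 bases from the GENCODE start, so this distance depends on the start chosen. Rpl35a, of the same group, had no peak in any library. The small-subunit genes Rps6, the target of S6 kinase, Rps3, Rpsa and the ubiquitin fusion gene Rps27a did not pass the filter, and each was at 0 in all Tet2-KO siNC libraries. In WT siNC libraries Rps6 had 0, 0.328 and 0.341 kb, Rps3 had 0, 0.512 and 0 kb, and Rps27a had 0.244, 0 and 0.38 kb.

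Of the large-subunit genes followed in every comparison, Rpl13a fell, with 0 kb in Tet2-KO siNC libraries, against 0.463, 0.405 and 0.428 kb in WT siNC libraries. Rpl3 had no peak in WT siNC cells and 0.302 kb in Tet2-KO siNC replicate 3 alone, and Rpl23 had none. Of 9 paralogues or relatives, 7 were tested and 4 fell. Rps27l, a paralogue induced by p53, had 0 kb in Tet2-KO siNC cells, against 0.281, 0.578 and 0.489 kb (adjusted p = 0.0264 by limma). Rpl22l1 was at 0, against 0.227, 0.33 and 0.33 kb. Rpl3l, expressed in heart and skeletal muscle, was at 0, against 0.344, 0.342 and 0.272 kb, with its nearest covered base at a median of 3173 bases. The testis gene Rpl10l was not called, with 0 kb, against 0, 0.469 and 0.65 kb (adjusted p = 0.0713 by limma).

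Genes of related processes also fell, in counts to be read beside the 71.9% of all tested windows that fell and their median of −0.418 kb. Of 78 mitochondrial ribosomal protein genes, 49 were tested and 43 fell in Tet2-KO siNC cells, with a median difference of −0.45 kb. Mrpl34 averaged 0.123 ± 0.214 kb in Tet2-KO siNC cells and 0.972 ± 0.0485 kb in WT siNC cells (SD, n = 3 each). Ribosome biogenesis genes fell in 21 of 24 tested (44 listed), among them Pno1, Nip7 and Nop2, translation initiation factors in 15 of 17 (29 listed), and elongation and other terminal-oligopyrimidine genes in 6 of 7 (13 listed). Proteasome subunits, a group outside translation, fell in 20 of 23 (40 listed), and Polycomb target transcription factors in 16 of 25 (29 listed). No gene of these lists rose.

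Some genes carried peaks in Tet2-KO siNC cells, in which 12% of all windows were covered. Of the Polycomb targets, 11 of 29 (37.9%) were covered in at least 2 Tet2-KO siNC libraries, and their mean covered length was 0.174 ± 0.0778 kb in these cells and 0.552 ± 0.121 kb in WT siNC cells (SD, n = 3 each). Of the mitochondrial ribosomal protein genes, 6 of 78 (7.69%) were covered, and none of 29 initiation factor genes. In these cells ribosomal protein genes were at 2.33%. No test was made of these differences between lists.

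The effect of Tet2 loss was then compared between the siNC and the untransfected experiment in 1 model, with 60 members tested of 86. The difference was called for 22 members, all with a lower Tet2 effect under siNC, and 39.3% of 13761 windows were called in that direction. The median difference of effects was −0.336 kb, beside −0.399 kb over all windows. Rps19 had the largest, at −1.11 ± 0.232 kb (SE; adjusted p = 0.00529 by limma), followed by Rps29 (−0.76 ± 0.113 kb) and Rpl36 (−0.705 ± 0.164 kb). The untransfected and siNC libraries were separate sets, so transfection and library set cannot be told apart. With libraries scaled to equal covered length, 7 members were called.

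Knockdown of Mbd6 or Nsun2 in Tet2-KO mES cells gave no called change of H2AK119ub at ribosomal protein genes. With siMbd6, 4 of 86 members (Rpl36al, Rpl7, Rps27rt and Rps29) were covered in at least 2 libraries (4.65%, against 16.2% of all windows), and with siNsun2 none was (against 11% of all windows). Single libraries held 3 to 9 covered members with siMbd6 and 1 to 4 with siNsun2, against 0 to 5 with siNC, so the groups overlapped. None of the 38 tested members was called by limma in either comparison, beside calls at 0.177% of all windows for siMbd6 and 0.0186% for siNsun2. For siMbd6, 1 member and 460 of 10756 windows had an unadjusted p under 0.05, and for siNsun2 0 members and 267 windows. Of the 38, however, 25 for siMbd6 and 27 for siNsun2 were at 0 in every library of both groups compared. They passed the filter through other groups of the experiment and could not be called, so the missing calls say nothing about them.

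Rpl36al had the largest difference under siMbd6, with 0.271, 0 and 0.644 kb, against 0 kb in all siNC libraries (0.305 ± 0.214 kb, SE; adjusted p = 1 by limma). Under siNsun2 it was Rps27l, with 0, 0 and 0.656 kb, against 0 kb in all siNC libraries. Rps29 had 0.238, 0 and 0.302 kb with siMbd6 and 0 kb in all siNsun2 and siNC libraries. Rps19, Rpl36, Rps18, Rpl21 and Rplp0 were listed at 0 in all 9 siRNA-treated Tet2-KO libraries.

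In HSPCs fewer ribosomal protein genes carried the mark, and the groups separated. A peak was found in at least 2 libraries for 27 of 86 members in Tet2-KO shMbd6 cells (31.4%, against 23% of all windows), for none in Tet2-KO shNC cells (against 2.07%) and for 12 in WT shNC cells (14%, against 11.9%). All 12 were among the 27, and 11 of the 12 were also covered in untransfected WT mES cells (91.7% of the HSPC set, 20.4% of the mES cell set). Small-subunit genes made up 8 of the 12, or 23.5% of their 34, compared with 4 of 52 large-subunit genes (7.69%). This difference was not tested, and in untransfected WT mES cells the shares were 67.6% and 59.6%. The 8 include a gene whose window overlaps that of Rpl13a, a large-subunit gene, and holds the same peak. The mean covered length per member was 0.135 ± 0.00694 kb in shMbd6, 0.00114 ± 0.00197 kb in Tet2-KO shNC and 0.0527 ± 0.00883 kb in WT shNC cells (SD, n = 3 each).

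The fall in Tet2-KO HSPCs reached single-gene significance for few members. Of the 22 tested members (of 86), 3 were lower in Tet2-KO shNC cells and none higher, and 22.7% of 4242 windows were called lower. An unadjusted p under 0.05 was found for 9 of the 22 members and for 1688 of the 4242 windows. The median difference was −0.197 kb, beside −0.214 kb over all windows. Of the 22, 6 were at 0 in every library of both groups compared and could not be called. All 3 called members were at 0 in every Tet2-KO shNC library. This adds no spread to the test, so their p-values may be too small. Rplp0 was listed at 0 in all Tet2-KO shNC libraries, against 0.325, 0.499 and 0.67 kb in WT shNC libraries (−0.498 ± 0.0902 kb, SE; adjusted p = 0.00403 by limma). Rpl13a was at 0, against 0.362, 0.351 and 0.404 kb (−0.372 ± 0.0726 kb, SE; adjusted p = 0.0058 by limma). Without WT shNC replicate 1, 2 or 3, 7, 6 or 4 members were called, and with peaks of −log10 q of at least 5 alone none of 5 tested was.

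Members covered in 2 WT libraries only were not called. Rps29 had 0 kb in Tet2-KO shNC cells, against 0.541, 0.5 and 0 kb in WT shNC cells (adjusted p = 0.113 by limma), the largest difference without a call. Rps19 had 0, 0.294 and 0 kb in Tet2-KO shNC cells, the 1 peak at any member in that group, against 0.406, 0 and 0.589 kb. Rps27l had 0 kb, against 0, 0.591 and 0.293 kb.

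H2AK119ub was higher at ribosomal protein genes after knockdown of Mbd6 in Tet2-KO HSPCs. Of 22 tested members, 18 rose and none fell, and 72% of 4242 windows rose. The median difference was 0.397 kb, beside 0.404 kb over all windows. Of the 18, 17 were compared with a shNC group listed at 0 in every library, and 6 of the 22 tested had passed the filter through the shMbd6 libraries alone, so the count is a description. With libraries scaled to equal covered length 9 of 22 were called, and with peaks of −log10 q of at least 5 alone 1 of 5. A peak over or within 1 kb of the GENCODE start was found for 15 of the 18.

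**Figure D4:**
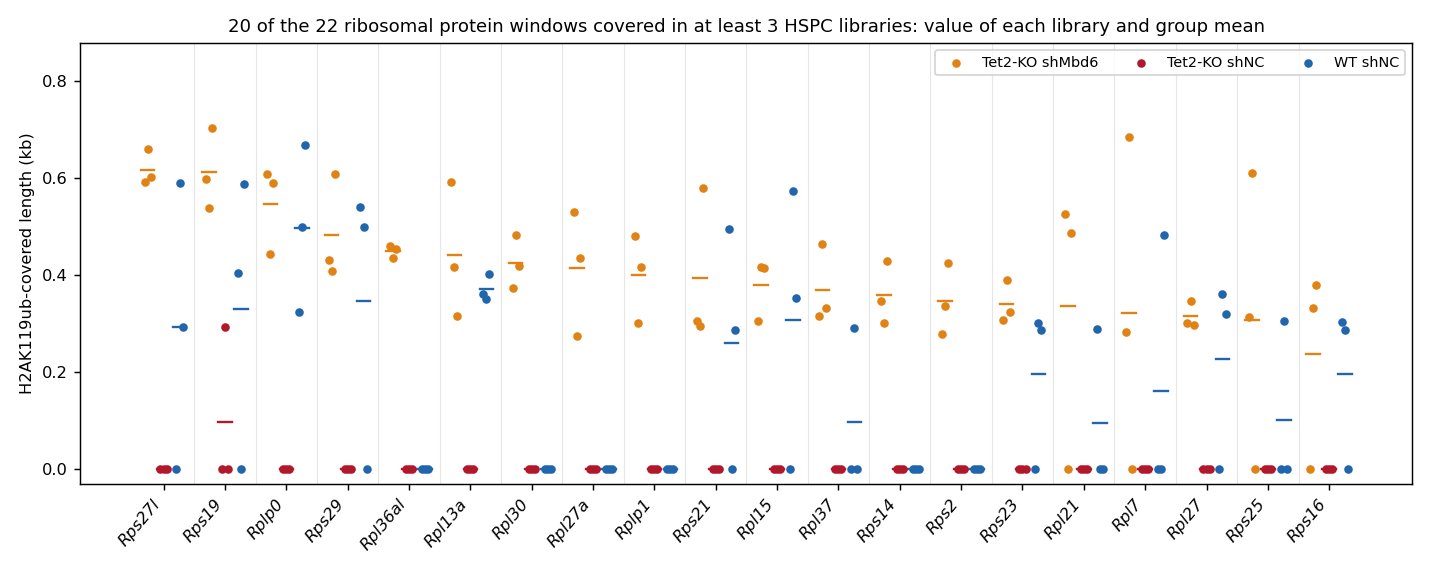
H2AK119ub-covered length (kb) of 20 of the 22 ribosomal protein windows tested in HSPCs, ordered by their mean in Tet2-KO shMbd6 cells, with 1 point per library and bars for group means. All Tet2-KO shNC points lie at 0 except 1 Rps19 library at 0.294 kb, and for 16 of the genes drawn all shMbd6 points lie above the shNC points.

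The largest rise was at Rps27l, with 0.592, 0.66 and 0.603 kb in shMbd6 cells, against 0 kb in all Tet2-KO shNC libraries (0.618 ± 0.127 kb, SE; adjusted p = 0.00359 by limma). Rplp0 had 0.61, 0.444 and 0.591 kb, against 0 kb (0.548 ± 0.0902 kb, SE; adjusted p = 0.0012). Rps19 had 0.599, 0.54 and 0.704 kb, against 0, 0.294 and 0 kb (0.516 ± 0.149 kb, SE; adjusted p = 0.0139). The shMbd6 and shNC libraries did not overlap for any of these genes. Rps29 had 0.432, 0.41 and 0.609 kb in shMbd6 cells, against 0 kb in all Tet2-KO shNC libraries (adjusted p = 0.0123 by limma).

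Some of these genes were marked in shMbd6 cells but in no WT shNC library of HSPCs. Rpl36al had 0.461, 0.437 and 0.454 kb in shMbd6 cells and 0 kb in all Tet2-KO shNC and WT shNC libraries, and Rplp1 had 0.481, 0.302 and 0.418 kb, likewise against 0 kb in both. The difference between shMbd6 and WT cells was not tested, and the shMbd6 libraries held more peaks (7650 to 8286, against 3979 to 4629). Rpl21 had the largest difference without a call, with 0.526, 0 and 0.487 kb, against 0 kb (adjusted p = 0.0593 by limma). Beside the 72% of all tested windows that rose, all 8 tested elongation and terminal-oligopyrimidine genes rose, Vim the most at 0.882 ± 0.36 kb in shMbd6 cells (SD, n = 3), as did 14 of 17 mitochondrial ribosomal protein genes, 10 of 15 ribosome biogenesis genes, 9 of 12 initiation factors and 7 of 12 proteasome subunits. Ncl, which encodes nucleolin, averaged 0.698 ± 0.079 kb in shMbd6 cells and was listed at 0 in Tet2-KO shNC cells.

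In K-562 cells ribosomal protein genes were almost free of H2AK119ub peaks. A peak was found in at least 2 libraries for 2 of 92 members with siMBD6 (2.17%, against 8.34% of all human windows), 3 with siNSUN2 (3.26%, against 10.3%), none with TET2-KO siNC (against 4.25%) and 1 with WT siNC (1.09%, against 4.89%). Over all 12 libraries 78 of 92 members had no peak. The 5 that passed the filter were RPL14, RPL15, RPL18, RPS19 and RPSA. None was called by limma in any of the 3 comparisons, and none had an unadjusted p under 0.05, beside 0.122% of 2457 windows called for TET2 loss, 0% for siMBD6 and 0% for siNSUN2. In the same order, 159, 264 and 362 of these windows had an unadjusted p under 0.05. For TET2 loss, 2 of the 5 were at 0 in every library of both groups compared and could not be called.

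RPSA, which encodes a small-subunit protein also known as the laminin receptor, was covered most often, in 6 of 12 libraries. It had 0.343, 0.323 and 0 kb with siMBD6, 0.309, 0 and 0.228 kb with siNSUN2, 0, 0.307 and 0 kb with TET2-KO siNC and 0, 0 and 0.33 kb with WT siNC. RPL15 had the largest difference under siMBD6, with 0, 0.386 and 0.259 kb, against 0 kb in TET2-KO siNC cells (0.215 ± 0.138 kb, SE; adjusted p = 0.536 by limma). RPS19 had 0.378, 0 and 0 kb in TET2-KO siNC cells, against 0, 0.538 and 0 kb in WT siNC cells. The groups overlapped for all 5 genes.

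BAP1, the deubiquitinase, was profiled in WT mES cells alone. No member window held a BAP1 peak in either of the 2 libraries, beside 0.237% of all windows with a peak in both (52 of 21911) and 179 with a peak in 1. These libraries held 2013 and 2233 peaks, and a peak list sets no upper limit on BAP1 at these genes.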

How the data were processed

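H2AK119ub was profiled in 39 CUT&Tag libraries and BAP1 in 2. Per the labels and the methods of the study, the authors trimmed reads (Trimmomatic 0.39), aligned them to mm10 or hg38 together with the Drosophila genome (Bowtie2 2.4.1), removed duplicates (Picard) and called broad peaks per library (MACS2). The deposited lists give peak positions, the fold enrichment over local background (a ratio) and −log10 of the q-value. No spike-in scaling was applied here. Reads and depth are not analysed here, so weak and absent marking cannot be told apart.

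Covered kb were counted in windows of 5 kb to each side of the start of each gene (GENCODE vM21 or v44, 1 window per symbol), after merging peaks (checked against bedtools 2.31.1). Groups came from the labels. Differences were tested with limma 3.58.1 (R 4.3.3) on covered kb, with all groups of an experiment in 1 model, for windows in which 3 or more of its libraries had a peak, with Benjamini-Hochberg adjustment over all windows and a threshold of 0.05. Members outside these windows were described only. The test was tried on simulated data in which every group had spread, so the trial does not cover groups without any. Per comparison, the text names the called members without overlap between groups, up to 6 per direction by size of difference, the largest difference not called, and a set followed throughout (Rplp0, Rplp1, Rplp2, Rpl5, Rpl11, Rps19, Rps24, Rpl35a, Rps6, Rps3, Rpsa, Rps27a, Rpl3, Rpl10, Rpl13a, Rpl23, Rpl22l1, Rpl39l, Rpl3l, Rpl10l, Rps27l), per group the 5 highest members, any member never covered, and up to 3 genes of other lists. Rps2 and the members of counts of 5 or fewer were named after their values were seen. Some members are not reported here by name or drawn, but stay in all counts. Members, lists and tests were chosen with earlier results of these data known. The number of libraries limits the precision, and spreads are SDs over 3 libraries.

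Alternatives were a window of 2 kb, other filters, peaks of −log10 q of at least 5, equal covered length, log2(kb + 0.1), only the groups compared, the replicate number as a block and leaving out each library. Added after seeing the data were counts without members that share their window with another gene, and the 2 kb window and stricter peaks for the counts of covered members.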

Additional observations from a re-analysis of the deposited data

Results flagged for a closer look

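The effect of Tet2 loss on ribosomal protein windows differed between siNC and untransfected mES cells for 22 of 60 tested members, by a limma test of the difference itself. Over all 13761 windows tested, 39.3% were called in the same direction. The median difference of effects was −0.336 kb for members, beside −0.399 kb over all windows. The largest differences of effect were at Rps19 (−1.11 kb), Rps29 (−0.76 kb), Rpl36 (−0.705 kb), Rplp2 (−0.686 kb), Rps27l (−0.642 kb) and Rps21 (−0.622 kb). Within the untransfected cells the Tet2 effect on the same scale was 0.177 kb at Rps19, 0.107 kb at Rps29, −0.019 kb at Rpl36, 0.211 kb at Rplp2, 0.192 kb at Rps27l and 0.172 kb at Rps21, none of them called. The Tet2-KO siNC libraries held 4251 to 9350 peaks, against 24360 to 37392 in WT siNC libraries, and 26316 to 35509 in untransfected Tet2-KO libraries. The part of this gap in the result was not tested.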

How the results depend on the processing

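Among the named members no difference changed direction with a call, and of 1215 values under alternatives 1148 kept their side of the threshold, 49 lost a call and 18 gained one. For Tet2 loss in siNC mES cells (32 called), 12 of 12 tested members were called with peaks of −log10 q of at least 5 and 0 of 3 with a filter of 6 of the 12 libraries. With equal covered length it was 23 of 38. Leaving out single libraries gave 6 to 31, but without a WT siNC library the 23 members covered in that group alone cannot be tested. For Tet2 loss in HSPCs (3 called), the stricter peaks gave 0 of 5 and single libraries left out gave 3 to 7. For Mbd6 knockdown in HSPCs (18 called), the stricter filter gave 11 of 11, the stricter peaks 1 of 5, equal covered length 9 of 22 and single libraries left out 12 to 16. For the difference of the Tet2 effect (22 called), the stricter peaks gave 10, equal covered length 7 and single libraries left out 18 to 25. For untransfected mES cells the log2 scale gave 2 calls, 1 in each direction, against 0. These are counts of members, given without the share of all windows under each alternative. In the main fits 71.9% of all tested windows fell for Tet2 loss in siNC mES cells and 22.7% in HSPCs. For shMbd6 72% rose, and for the difference of effects 39.3% were lower. The cause of these moves was not tested, except that the stricter filter, the stricter peaks and libraries left out leave fewer windows to test. The 6 members covered in shMbd6 HSPCs alone cannot be tested when a library of that group is left out.

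With the stricter peaks, 87.4%, 80.2% and 87.5% of the covered member bases lay within 1 kb of the TSS in untransfected WT, Tet2-KO and WT siNC mES cells, and 26, 22 and 24 members were covered in at least 2 libraries. With members lacking another TSS in the window, 19 of 21 fell in siNC mES cells, beside 71.9% of all tested windows. In Tet2-KO HSPCs 1 of 14 fell, beside 22.7% of all tested windows, and 12 of 14 rose with shMbd6, beside 72%. In no comparison did the deviations of all 3 same-numbered pairs correlate above 0.1, so the numbers were not taken to pair the libraries. In siMbd6 and siNsun2 against siNC, however, all 3 pairs correlated positively (0.235, 0.031 and 0.103, and 0.239, 0.0417 and 0.0976) and every library correlated best with its own number, a hint from the data and not the design. Replicate 1 also held the fewest peaks in every H2AK119ub group of mES cells, so the replicate number may stand for a shared batch or depth, which the labels do not give. With the replicate number as a block, 34 members were called for Tet2 loss in siNC mES cells, 3 in HSPCs, 20 for shMbd6 and 26 for the difference of effects, and 0 elsewhere. The other counts stayed within 1.5 times, and the counts of 0 in the other comparisons did not move. Depth is unknown, so a window at 0 may hold weak marking.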
